A study of Mus musculus with 2 samples.

Results

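B cells of dystrophic mouse muscle were taken as the cells that the authors' clustering placed in clusters 10 and 15, which gave 1001 cells of the 17813 in the table. Of these, 677 came from mdx and 324 from cKO muscle. Cluster 10 held 719 of them (489 mdx, 230 cKO) and cluster 15 held 282 (188 mdx, 94 cKO). The rule used the cluster number alone, and the table gives clusters a number but no cell type. The table holds values per cell and no expression per gene, so Ms4a1, Cd79a and Cd79b, genes that mark B cells, were not analysed here and the name B cells was not checked against them.

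Both groups were male mdx mice, which lack dystrophin, on the BL/10 background. The control group, called mdx here, kept Spp1, the gene for the secreted protein osteopontin. The cKO group carried Spp1 with exons 2 and 3 floxed together with Lyz2Cre, whose Cre is made in myeloid cells, so the B cells of cKO mice were not the cells aimed at by the deletion. In GEO the genotype of the mdx sample is given as control WT, at odds with its title, and it was read here as wild type at Spp1. The extraction protocol in GEO speaks of blood mononuclear cells (PBMCs), whereas the sample titles and the study's methods give muscle. Mononucleated cells came from limb and diaphragm muscle of 3 mice per genotype at 3 months of age. The table holds 1 library of each genotype, with 7156 cells and 43185486 UMIs (unique molecular identifiers, 1 for each transcript captured) in mdx and 10657 cells and 59240298 UMIs in cKO. Mice cannot be told apart within a library, and no test of genotype was possible. The intervals below are 95% intervals that cover counting error only. Those of a ratio or difference of medians are wider, as they join the opposite ends of the 95% interval of each median. The libraries shared 20 barcodes, 1 of them in a B cell.

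B cells are lymphocytes that recognise antigen through a surface antibody. A resting B cell is small and holds little RNA. After activation it grows and divides, and some of its descendants become plasma cells, which devote much of their transcription to a few antibody genes. The S and G2M scores of a cell measure how strongly it expresses genes of DNA replication and of the approach to mitosis, relative to control genes. A score above 0 is higher than the control genes, and a score has no unit.

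Cluster 15 made up a like share of the B cells in both libraries, although B cells themselves were scarcer among cKO cells, by a ratio of shares of 0.321 (0.282 to 0.366). It held 188 of 677 mdx B cells (27.8%, exact Clopper-Pearson interval 24.4 to 31.3) and 94 of 324 cKO B cells (29.0%, 24.1 to 34.3). In cKO the share was thus 1.04 times that in mdx, with a log interval of 0.848 to 1.29. Both clusters were thus lower in cKO, and a difference between them in that respect was not detectable with these numbers of cells.

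The clusters differed most in their cell cycle scores. In cluster 10 the median S score was -0.0227 in mdx and -0.0232 in cKO, and the median G2M score was -0.0241 in mdx and -0.0245 in cKO. The higher of the 2 scores of a cell had an SD of 0.0532 over mdx and 0.0665 over cKO cells of cluster 10. In cluster 15 the median S score was -0.0158 in mdx and 0.0138 in cKO, the median G2M score was 0.0276 in mdx and 0.0419 in cKO, and the SD of the higher score was 0.473 in mdx and 0.456 in cKO. The medians lay close to each other, whereas the spread in cluster 15 was far wider, because cluster 15 held a dense group of cells near 0 and a separate, scattered group at high scores. The clusters were drawn from the genes of these same cells, which can include cell cycle genes, so the difference in score between clusters is a description and not a test.

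A cell was called high-score where the higher of its S and G2M scores was above 0.2, and low-score otherwise. The B cells held 119 high-score cells, and 115 of them lay in cluster 15 (96.6%, 91.6 to 99.1). This held in each library, with 79 of 81 high-score B cells in cluster 15 in mdx and 36 of 38 in cKO. Within cluster 15, the high-score cells were 79 of 188 in mdx (42.0%, 34.9 to 49.4) and 36 of 94 in cKO (38.3%, 28.5 to 48.9), a ratio of cKO to mdx of 0.911 (0.671 to 1.24). Within cluster 10, 2 of 489 mdx cells (0.409%) and 2 of 230 cKO cells (0.870%) were.

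**Figure D1:**
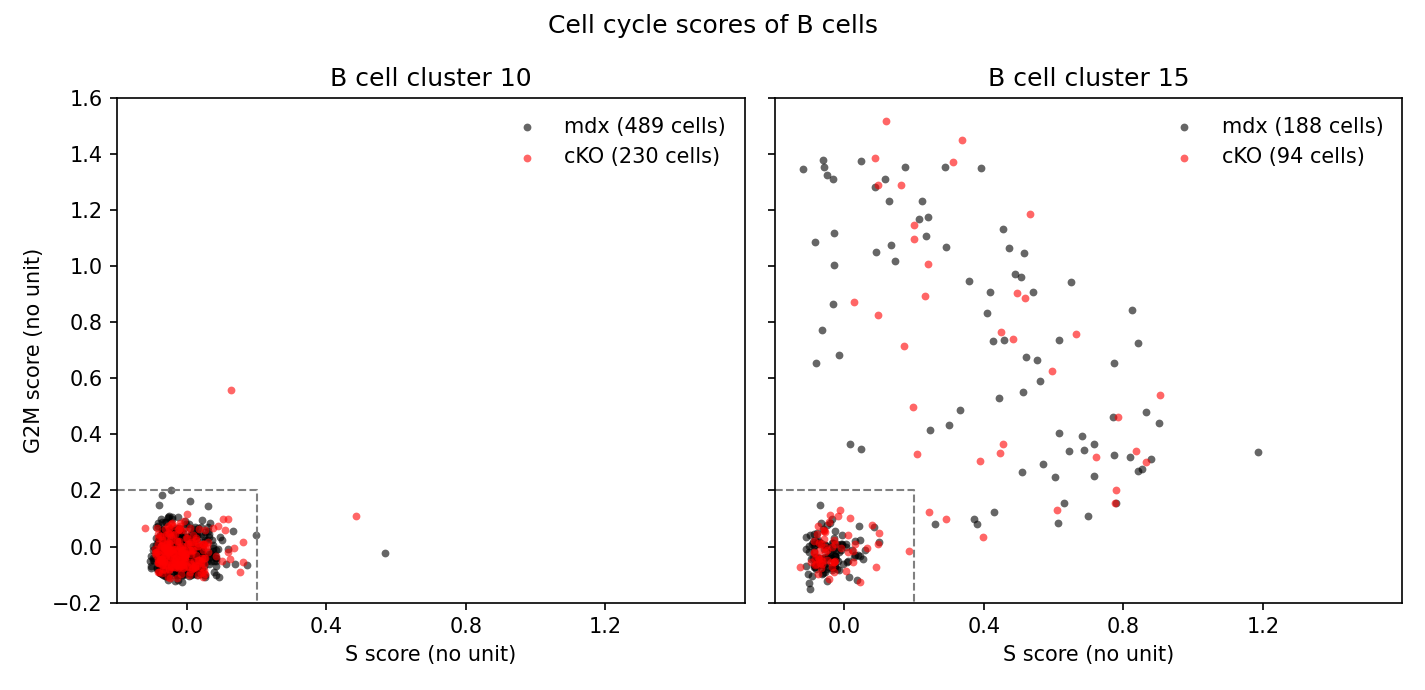
S score (horizontal) and G2M score (vertical) of every B cell, without unit, in cluster 10 (left) and cluster 15 (right), mdx in black and cKO in red, each point being 1 cell. The dashed line bounds the low-score cells, with both scores at most 0.2; 4 of 719 cells of cluster 10 and 115 of 282 of cluster 15 lie outside it.

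Few cells of cluster 15 lay near the threshold, and fewer in mdx than in cKO. A higher score between 0.1 and 0.3 was found in 2 of 188 mdx cells (1.06%) and 7 of 94 cKO cells (7.45%). Over both libraries, 121 cells of the cluster lay above 0.1, 115 above 0.2 and 112 above 0.3. The cells nearest the threshold were at 0.147 below and 0.260 above in mdx, and at 0.184 below and 0.242 above in cKO. Most high-score cells lay far from it, with 98 cells above 0.5 and 37 above 1. None of the 719 cells of cluster 10 exceeded 1, which allows a share of up to 0.417%, taking 3 counts as the limit of a count of 0.

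The 4 high-score cells of cluster 10 were unlike each other. In mdx, 1 cell reached 0.202 on the G2M score, next to the threshold, with 1956 UMIs over 959 genes, which lies in the ordinary range of its cluster. The other mdx cell had an S score of 0.567, with 6212 UMIs over 2083 genes. In cKO, 1 cell had an S score of 0.484, with 4177 UMIs over 1636 genes, and 1 a G2M score of 0.559, with 3343 UMIs over 1120 genes.

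Within cluster 15 the high-score cells spread along an arc from high S to high G2M scores. The S score alone was above 0.2 in 13 cells, both scores in 71 and the G2M score alone in 31. The 3 kinds held 8, 49 and 22 cells in mdx and 5, 22 and 9 in cKO. The scores ran against each other in these cells, with a Spearman rho across cells of -0.612 over 79 mdx cells and -0.493 over 36 cKO cells, given as a description, since the cells share a library and the members were taken by a threshold on the same scores. Among the low-score B cells of both clusters, rho was -0.00203 in mdx and 0.0011 in cKO.

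The high-score cells carried the UMIs of cluster 15. Their median was 7538 UMIs per cell in mdx (quartiles 5464 and 12781.5) and 7020.5 in cKO (3684.75 and 10388.5). The low-score cells of the same cluster had 2173 in mdx (1766 and 2718) and 1514 in cKO (1277.5 and 1857). The median was thus 3.47 times higher in high-score cells in mdx and 4.64 times in cKO. In both libraries the lower quartile of the high-score cells lay above the upper quartile of the low-score cells.

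Genes detected followed the UMIs. The median number of genes was 2442 in mdx and 2559.5 in cKO for high-score cells of cluster 15, and 1002 and 827 for low-score cells, which gave ratios of 2.44 and 3.09. The mitochondrial share of UMIs went the other way, with medians of 4.90% in mdx and 4.39% in cKO for high-score cells and 5.43% and 6.33% for low-score cells. The order of the median UMIs over bands of the higher score differed between the libraries. From 0.2 to 0.5, from 0.5 to 1 and above 1, the medians were 6680, 10130 and 6655 UMIs in mdx (9, 43 and 27 cells) and 8105.5, 7543 and 5328.5 in cKO (8, 18 and 10 cells). The cells above 1 had the lowest median of the 3 bands in each library, by a small margin in mdx. The cells high in both scores had the highest median of the 3 kinds in each library, with 9408 UMIs in mdx and 7478.5 in cKO. The order of the other kinds differed, with 8394 UMIs for S alone and 6537 for G2M alone in mdx, and 3749 and 7208 in cKO, where they rest on 5 and 9 cells.

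**Figure D2:**
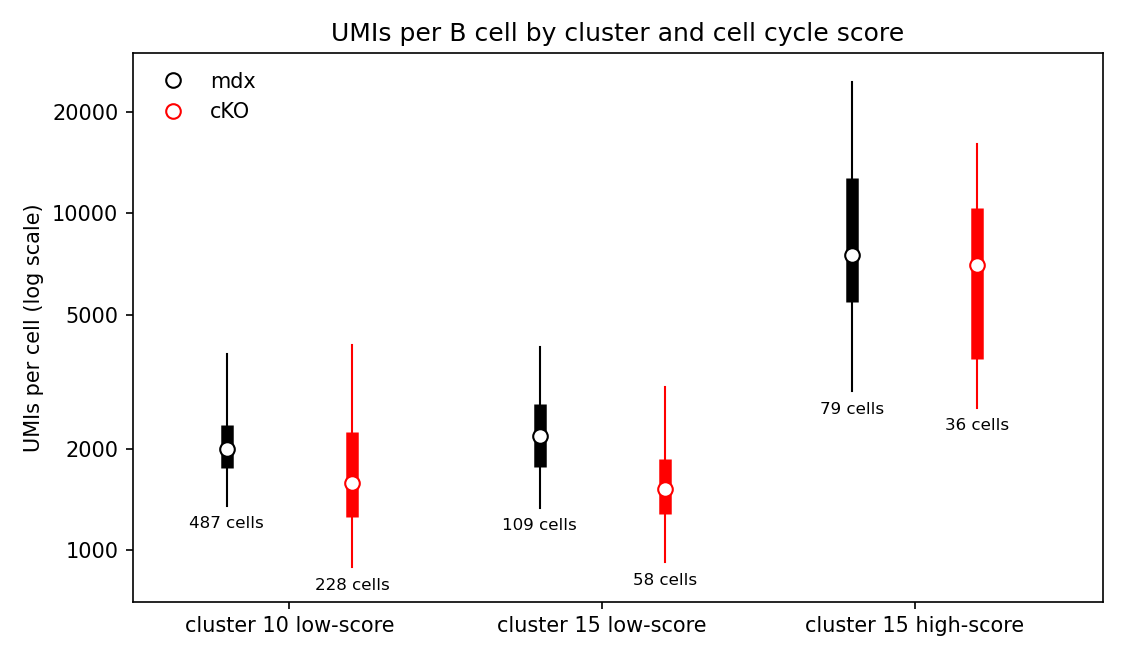
UMIs per cell (vertical, log scale) of low-score cells of cluster 10 and of low-score and high-score cells of cluster 15, with mdx in black and cKO in red. Open circles are medians, thick bars quartiles and thin lines the 5th to 95th percentile over cells; the high-score cells stand at medians of 7538 and 7020.5, and all 4 other groups between 1514 and 2173.

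Cluster 15 as a whole had more UMIs per cell than cluster 10 in mdx, and in cKO the interval did not tell them apart. Cluster 10 had a median of 1996 UMIs in mdx (quartiles 1754 and 2359) and 1589.5 in cKO (1249 and 2300.25), and cluster 15 had 2949 in mdx (2044.25 and 6762) and 1959 in cKO (1434 and 4304.75). The median of cluster 15 over that of cluster 10 was 1.48 in mdx (interval 1.29 to 1.82) and 1.23 in cKO (0.942 to 1.98). With low-score cells alone the ratio was 1.09 in mdx and 0.955 in cKO, so in cKO it turned to the other side of 1. The median mitochondrial share of cluster 15 minus that of cluster 10 was -0.600 percentage points in mdx (5.15% and 5.75%, interval -0.882 to -0.136) and -0.212 points in cKO (5.55% and 5.77%, interval -0.996 to 0.708). With low-score cells alone this difference was -0.316 points in mdx and 0.564 points in cKO, on the other side of 0.

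Low-score cells of cluster 15 had more genes than those of cluster 10 in the same window of UMIs. Between 1500 and 2500 UMIs, the median was 948 genes in 58 cells of cluster 15 and 861 in 337 cells of cluster 10 in mdx, and 942.5 in 24 cells and 875.5 in 74 cells in cKO. Other windows gave the same order in both libraries. From 1000 to 1500 UMIs, cluster 15 had 77 more genes in mdx and 77.5 more in cKO, from 1500 to 2000 UMIs 54 and 87 more, and from 2000 to 3000 UMIs 128.5 and 182.5 more. Median UMIs within a window were not equal between clusters 15 and 10. From 1000 to 1500 UMIs they were 1416 and 1373.5 in mdx and 1336 and 1264.5 in cKO. From 1500 to 2000 they were 1788 and 1808 in mdx and 1637 and 1688 in cKO. From 2000 to 3000 they were 2345 and 2253.5 in mdx and 2262 and 2444 in cKO. The ranges between the quartiles of genes did not overlap from 1000 to 1500 UMIs in mdx and from 2000 to 3000 UMIs in cKO. Cluster 15 held only 11 and 8 low-score cells there. The ranges overlapped in the other 4 of these windows. The S score of these cells was also lower in cluster 15, where the medians were -0.0468 (mdx) and -0.0470 (cKO), than in cluster 10, where they were -0.0227 (mdx) and -0.0240 (cKO), a difference smaller than the SD of any of these groups (0.0451 to 0.0587).

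**Figure D3:**
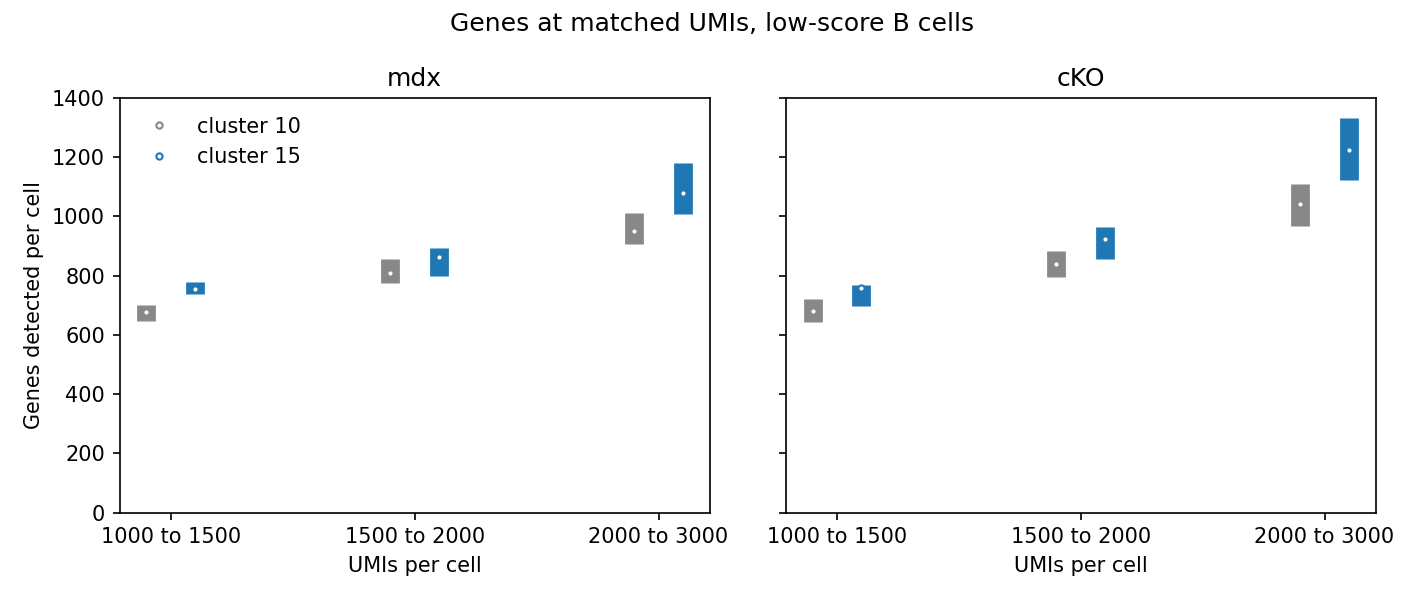
Genes detected per cell (vertical) of low-score B cells in 3 windows of UMIs per cell (horizontal), in mdx (left) and cKO (right), for cluster 10 in grey and cluster 15 in blue. Dots are medians and bars quartiles over cells. The cluster 15 median is higher in each window, by 54 to 128.5 genes in mdx and by 77.5 to 182.5 in cKO. The difference of 182.5 rests on 8 cells of cluster 15.

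The phase calls in the table gave a different picture of cluster 10. Every one of the 17813 cells followed 1 rule, in which a cell is called G1 where both scores are below 0 and otherwise S or G2M after the higher score. By these calls, 266 of 489 mdx cells (54.4%) and 116 of 230 cKO cells (50.4%) of cluster 10 were in S or G2M. Of these, 2 in mdx (0.752%) and 2 in cKO (1.72%) were high-score, so that nearly all the calls in cluster 10 were of scores just above 0. In cluster 15, 129 of 188 mdx cells (68.6%) and 65 of 94 cKO cells (69.1%) were called S or G2M, and 61.2% and 55.4% of these were high-score. Low-score cells were called S or G2M about as often in either cluster, at 54.2% in mdx and 50.0% in cKO in cluster 10 and at 45.9% and 50.0% in cluster 15. The phase calls alone were therefore not read as a count of dividing cells.

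Between the libraries, the share of B cells that were high-score was close, at 12% (9.62 to 14.7) in the mdx library against 11.7% (8.43 to 15.7) in the cKO library, with a ratio of 0.980 (0.683 to 1.41). As a share of all cells of a library, high-score B cells made up 1.13% of mdx and 0.357% of cKO, giving a ratio of 0.315 (0.215 to 0.463), which is near the ratio for all B cells. T cells (clusters 5 and 8), the other lymphocytes of the table, had high-score shares of 2.58% in mdx (34 of 1316) and 6.59% in cKO (59 of 895), a ratio of 2.55 (1.69 to 3.86), and that interval lies above the one for B cells. This pooled ratio also carries the mix of the T cell clusters. Cluster 8 held 29 of the 34 high-score T cells in mdx and 56 of the 59 in cKO. It made up 351 of the 1316 T cells in mdx but 465 of the 895 in cKO. Inside cluster 8 the high-score share was 8.26% in mdx (exact interval 5.60 to 11.7) against 12% in cKO (9.23 to 15.4). These intervals overlap. All the intervals cover counting error only, and whether T cells and B cells differ in this ratio was not tested. High-score cells held 36.7% of the UMIs of B cells in mdx and 32.9% in cKO.

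Among the 20 clusters of the table, cluster 15 had the fourth highest high-score share in both libraries. Clusters 11 and 13 were almost wholly high-score, at 95.4% and 98.0% in mdx and 97.3% and 96.9% in cKO, and cluster 14 stood next to cluster 15, at 48.1% and 43.6%. Cluster 15 thus mixed both kinds of cell. The intervals of clusters 14 and 15 overlap in both libraries.

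**Figure D4:**
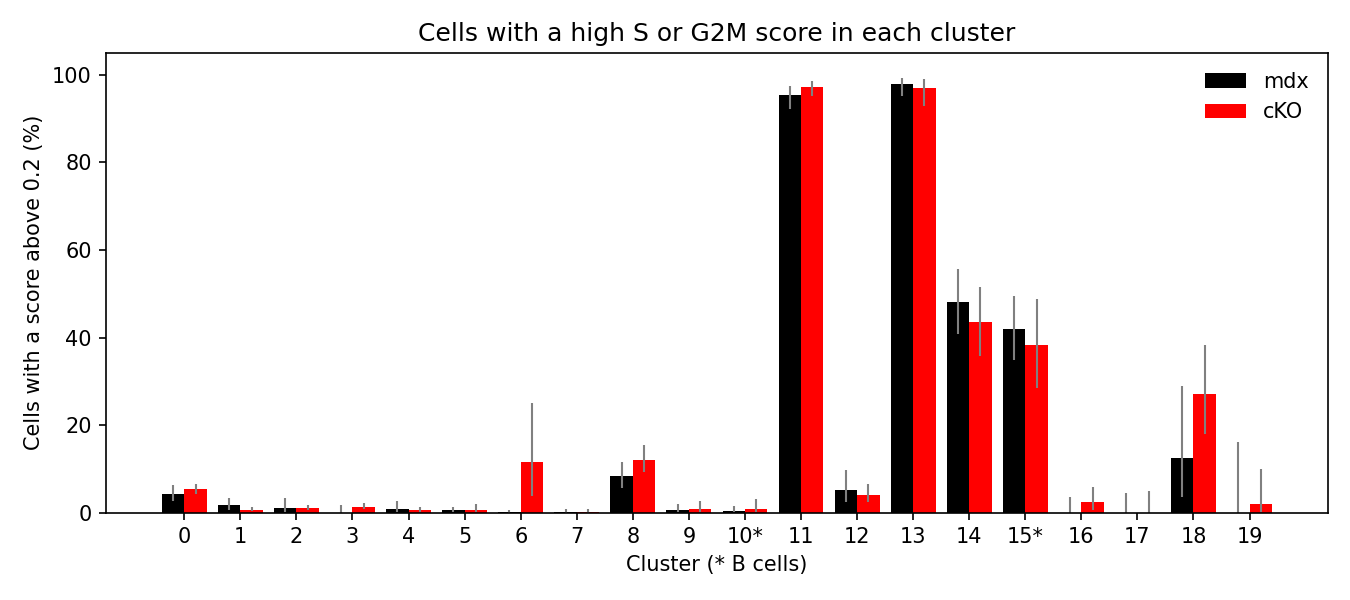
Share of cells whose S or G2M score was above 0.2 (vertical, %) in each of the 20 clusters (horizontal, B cells starred), mdx in black and cKO in red, with exact 95% intervals in grey. Cluster 15 stands at 42.0% and 38.3%, cluster 10 at 0.409% and 0.870%.

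UMIs per cell were higher in mdx than in cKO for low-score B cells, and less clearly so for high-score cells. The ratio of the mdx median to the cKO median was 1.26 in cluster 10, 1.44 in low-score cells of cluster 15 and 1.07 in high-score cells of cluster 15. For cluster 10 it was the lowest of the 12 immune clusters, and for cluster 15 as a whole, at 1.51, the fifth lowest; T cell clusters 5 and 8 were at 1.82 and 1.69. Genes per cell in cluster 10 differed less, with medians of 879 in mdx and 804 in cKO, and the mitochondrial share of 5.75% and 5.77% differed least. Outside the immune clusters, the ratio was above 1 in clusters 0, 2, 6 and 14, at 1.45, 1.45, 2.44 and 1.84. It was below 1 in clusters 16, 17, 18 and 19, at 0.673, 0.686, 0.666 and 0.927. Whether a difference of the whole library lay behind these ratios was not tested. The part of UMIs per cell in the scores and shares above was not tested. Weighted to the UMIs of mdx B cells, the high-score share of cluster 15 was 20.1% in mdx and 27.7% in cKO, an order of the libraries that rests largely on 1 bin, from 2195 to 3039 UMIs, with 3 high-score cells of 37 in mdx and 3 of 8 in cKO. Since high-score cells themselves held more UMIs, this weighting also removes part of what it compares.

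Another small group stood apart within cluster 10. At a limit of 5 UMIs per detected gene, chosen after the values were seen, 10 low-score B cells lay above it, and all 10 were in cluster 10, 4 of 489 in mdx (0.818%) and 6 of 230 in cKO (2.61%). The ratio of cKO to mdx was 3.19, with an interval of 0.909 to 11.2, so the libraries were not told apart by these counts. These cells had 5912 to 22696 UMIs over 1153 to 2227 genes, or 5.13 to 11.8 UMIs per gene. The next highest low-score B cell had 3.81 UMIs per gene, and the highest of cluster 15 had 3.14. Another 9 B cells exceeded the limit, all high-score cells of cluster 15, 8 of them in mdx and 1 in cKO.

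The 4 mdx cells of this group had 15930, 18221, 20679 and 22696 UMIs over 1704, 2227, 1983 and 1916 genes. The 6 cKO cells had 5912, 9616, 10800, 11237, 13724 and 17088 UMIs over 1153, 1297, 1476, 1341, 1674 and 2003 genes. All 4 mdx cells lay above 5 of the 6 cKO cells in UMIs. Their mitochondrial shares, of 1.82% to 4.38%, were under the median of cluster 10 in either library.

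The high-score cells with many UMIs had more genes than these cells. Of the 48 B cells with at least 10000 UMIs, 40 were high-score cells of cluster 15, with 2523 to 5022 genes. The other 8 were low-score cells of cluster 10, with 1341 to 2227 genes, and these ranges do not overlap. All 8 had been picked for many UMIs per gene, so the gap follows in part from that choice. The limit of 5 is not special to B cells. It was exceeded by 148 of 15265 low-score cells outside the B cells (0.970%), 55 of them in cluster 4, 44 in cluster 0 and 21 in cluster 9, against 10 of 882 low-score B cells (1.13%). A higher limit of 8 was also chosen after the values were seen. Of the low-score cells with at least 10000 UMIs outside the B cells, 2 of 1402 (0.143%) had more than 8 UMIs per gene. Of the 8 B cells, 7 did, but all 8 were members of the group already picked for UMIs per gene. The other low-score B cells had at most 8575 UMIs. These counts therefore do not compare B cells with the rest. The median of those 1402 cells was 3.86 UMIs per gene over 3378.5 genes. None of 2118 low-score T cells had more than 5 UMIs per gene, which by the same limit of 3 counts allows a share of up to 0.142%. Their UMIs did not reach as far, however. Low-score cells of cluster 8 had at most 10202 UMIs in mdx and 10352 in cKO. All cells of cluster 5 had at most 12005 and 9002, against up to 22696 in the group of B cells. The genes that took these UMIs were not analysed here, so the cells were given no name.

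**Figure D5:**
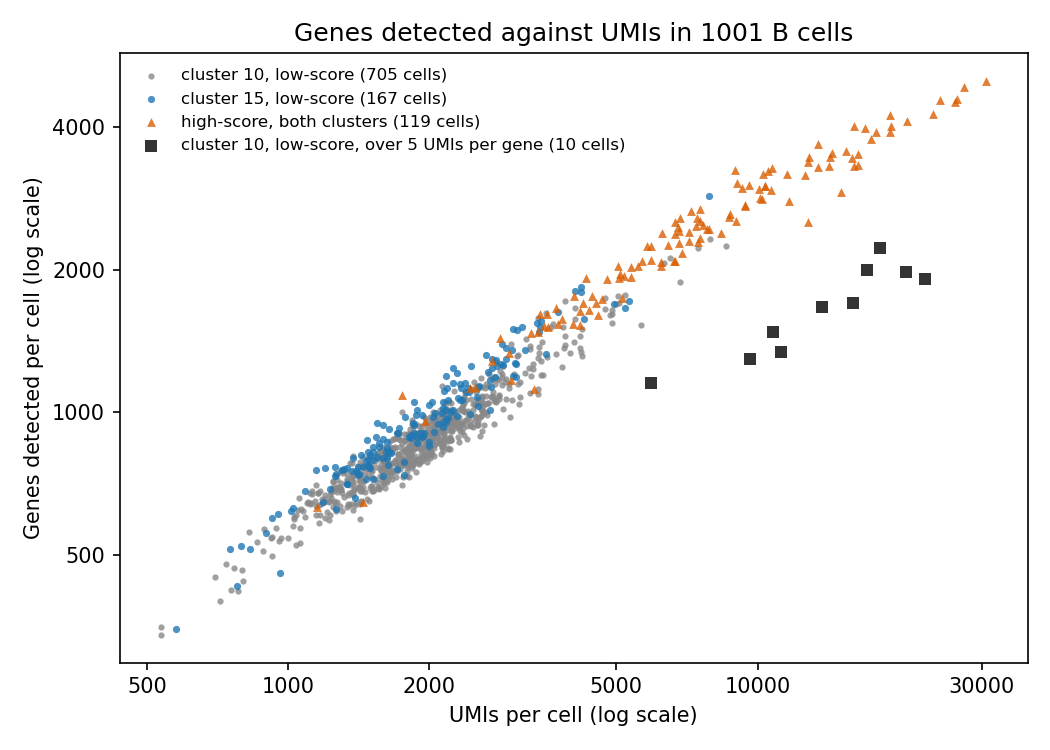
Genes detected per cell (vertical, log scale) against UMIs per cell (horizontal, log scale) in the 1001 B cells, each point being 1 cell. High-score cells (triangles) continue the line of the low-score cells to more UMIs, while 10 low-score cells of cluster 10 (squares) lie below it, with 1153 to 2227 genes at 5912 to 22696 UMIs.

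These 10 cells weighed on the mean of their cluster. They held 6.84% of the UMIs of cluster 10 in mdx and 14.1% in cKO. The ratio of the mdx mean to the cKO mean was 1.10 with them and 1.17 without them, against 1.26 for the medians. Doublets were not called. Among cells in the top 5% of their library by UMIs, 15 were B cells in mdx, 12 of them high-score, and 7 in cKO, 5 of them high-score.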

How the data were processed

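The authors built the single cell libraries with 3' chemistry from 10x Genomics. Cell Ranger 7 and the build mm10 are named in the submitters' processing notes, and Seurat in the methods. The deposited values are per cell. The UMI count and the gene count are raw whole numbers from the authors, the deposited mitochondrial value is a fraction of UMIs, multiplied into percent here, and each deposited cell cycle value (S and G2M) is a score whose calculation is not given in the methods. The cluster numbers are the authors', at a resolution of 0.5. Libraries were assigned by their names, read as with or without Cre. The limits stated in the methods (200 to 1800 genes, at most 20% mitochondrial UMIs) do not describe the table, in which 8040 cells, 101 of them B cells, exceed 1800 genes.

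B cells were the rows of clusters 10 and 15. The members, thresholds and comparisons were chosen with earlier results of these data known. By the rule for named genes no gene was given a value, since the table holds no expression per gene; for the same reason cells could not be thinned to 1 depth. Medians, quartiles, exact (Clopper-Pearson) and log 95% intervals were obtained with SciPy 1.17.1, NumPy 2.4.6 and pandas 2.3.3 under Python 3.11.15, and Matplotlib 3.10.9 drew the figures. For a ratio or difference of medians, the interval joined the opposite ends of the 95% interval of each median. No test was run, as each genotype has 1 library. The weighting by 5 bins of the UMIs of B cells was tested on simulated data. The simulated sets held many more cells than cluster 15, so they do not show how it does in small bins. The alternatives were thresholds of 0.1 and 0.3, the limits of the methods, at least 500 genes or 1000 UMIs, dropping the top 5% of each library by UMIs, another denominator, the mean, and the weighting by UMIs. Low-score cells alone, and the limits of the methods for the high-score shares, were added after seeing the data.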

Additional observations from a re-analysis of the deposited data

How the results depend on the processing

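Of 75 values recomputed under the alternatives, 61 stayed within the counting interval of the reported value and 14 moved outside it. Among the 61, 3 in cKO changed direction, from values whose intervals held both directions: cluster 15 over cluster 10 in UMIs went from 1.23 to 0.987 within the limits of the methods and 0.955 in low-score cells, and the mitochondrial difference from -0.212 to 0.564 points in low-score cells. Within the limits of the methods (200 to 1800 genes), the ratio of B cell shares was 0.424, cluster 15 made up 20.2% of B cells in mdx and 23.6% in cKO, its UMI median over that of cluster 10 was 1.12 in mdx, and its high-score share was 11.5% in mdx and 20% in cKO. These limits keep 14 of 79 high-score cells of cluster 15 in mdx and 14 of 36 in cKO, so they remove most of the cells the shares count. By the mean, cluster 15 over cluster 10 was 2.39 in mdx, and mdx over cKO in cluster 10 was 1.10. By the median in low-score cells, cluster 15 over cluster 10 was 1.09 in mdx. Weighted to the UMIs of mdx B cells, the high-score share of cluster 15 was 20.1% in mdx and 27.7% in cKO, and its share called S or G2M in mdx was 58.5%. With a threshold of 0.1, high-score shares of cluster 10 were 3.68% in mdx and 5.22% in cKO. The number of cells limits the shares, above all the 4 high-score cells of cluster 10. No paired analysis was possible because each genotype has 1 library.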
